A study of Arabidopsis thaliana with 6 samples.

Results

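The WRKY family holds transcription factors of plants that share a conserved DNA-binding domain. The 56 WRKY genes of Arabidopsis thaliana considered here, which leave out TTG2, were part of 33554 loci listed in every library. The 56 genes were chosen by family name, with earlier results of these data known, and each was looked up by its locus identifier. Family and subgroup counts refer to this list, and WRKY genes outside it were not looked up. Transcript levels were measured by RNA sequencing after fluorescence-activated sorting of root cells, from seedlings grown for 6 days on plates. Each library came from seedlings in which green fluorescent protein marked a cell population. Epidermis cells carried ProWER:GFP, cortex cells ProAT1G09750:GFP, endodermis cells ProSCR:GFP in line 1 or line 2, stele cells (the central vascular cylinder) ProWOL:GFP and columella root cap cells the enhancer trap PET111. No treatment was applied, and every group shared growth under long days on sucrose medium, sorting and polyA+ library preparation. Each population is what its reporter marks, so cells outside the named layer in which the promoter is active could be included. Endodermis had 2 libraries, and the other 4 cell types had 1 library each, with no replicate check.

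WRKY proteins bind the W box, a short DNA element with the core TTGAC, and many WRKY genes carry W boxes and are controlled by other family members. The family is best known for responses to microbes, wounding, salicylate and nutrient supply, where pattern receptors act through mitogen-activated protein kinases on WRKY proteins. Members are sorted by domain number and sequence into subgroups I, IIa to IIe and III. In roots, members are also known in phosphate uptake and in development.

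The DNA that encodes the core of the WRKY domain was read from the TAIR10.1 reference (RefSeq) for all 56 genes, and it gave 65 cores of 7 codons. All 9 genes of subgroup I carried 2 cores and the other 47 genes carried 1. The sixth codon of the core encoded glutamine in 63 cores and lysine in 2, those of WRKY50 and WRKY51, of subgroup IIc. The cores below show this difference beside WRKY40 and WRKY18 of subgroup IIa, both cores of WRKY33 of subgroup I, and WRKY70 of subgroup III, whose levels are described further on. Each is written 5′ to 3′ on the coding strand, with the sixth codon in capitals.
WRKY50, chr5:9147579-9147599, minus strand: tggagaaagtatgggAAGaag
WRKY51, chr5:25908864-25908884, plus strand: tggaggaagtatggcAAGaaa
WRKY40, chr1:30384789-30384809, plus strand: tggaggaaatatggaCAGaaa
WRKY18: tggaggaaatacggaCAAaag
WRKY33, first core, chr2:16109358-16109378, plus strand: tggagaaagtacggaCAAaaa
WRKY33, second core, chr2:16109982-16110002, plus strand: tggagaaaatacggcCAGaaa
WRKY70, chr3:20909760-20909780, minus strand: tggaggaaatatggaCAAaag

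Levels are given as deposited, in FPKM (fragments scaled by transcript length and by library size), so that genes of unequal length can be set side by side. Between 15999 and 17096 loci per library reached 1 FPKM, and summed FPKM lay between 576322 and 642028. The libraries were checked against marker genes. WER read 91.3 FPKM in epidermis and no more than 12.8 in any other library, and all 7 epidermis markers were enriched there. AED3 (AT1G09750) read 43.0 FPKM in cortex and no more than 5.51 in any other, and 1 of 2 cortex markers was enriched there. SCR read 59.7 FPKM in endodermis line 1 and 147 in line 2, against 36.5 in cortex and at most 14.7 in the remaining libraries, and 7 of 8 endodermis markers were enriched in both lines. WOL read 46.0 FPKM in stele and no more than 30.7 in any other library, and 4 of 6 stele markers were enriched there. Root cap markers were enriched in columella root cap for 3 of 5 genes, and the remaining BRN1 and BRN2 were at 66.8 and 31.6 FPKM there and at 47.8 and 34.4 FPKM in epidermis. In the columella root cap library 4 of 5 xylem markers were also enriched, so it went against its label in part: XCP1, a xylem protease, was at 317 FPKM there, against 98.7 in stele.

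WRKY transcripts were most abundant in epidermis, columella root cap and endodermis line 1. Summed over the 56 genes they came to 1729 FPKM in epidermis, 367 in cortex, 1259 and 328 in endodermis lines 1 and 2, 228 in stele and 1486 in columella root cap. The 2 lines of the same cell type thus differed more in this sum than line 2 differed from cortex or stele. The 5 highest members held between 41.1% (cortex) and 67.3% (endodermis line 1) of the sum. In total 47 of 56 members reached 1 FPKM in at least 1 library and are called measured here, as are 19671 of all loci. Of these 47, 25 had their highest value in epidermis, against 14.3% of all measured genes, 14 in columella root cap, against 23.2%, and 5 in endodermis line 1, against 13.1%. Stele was the highest library for 3 members, against 28.6% of all measured genes, while none was highest in cortex (12.6%) or endodermis line 2 (8.24%). The lowest value of 26 of the 47 (55.3%) was in stele, against 21.4% of all measured genes. In sorted cells, a lower level per cell and fewer cells that carry the transcript cannot be told apart.

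**Figure D1:**
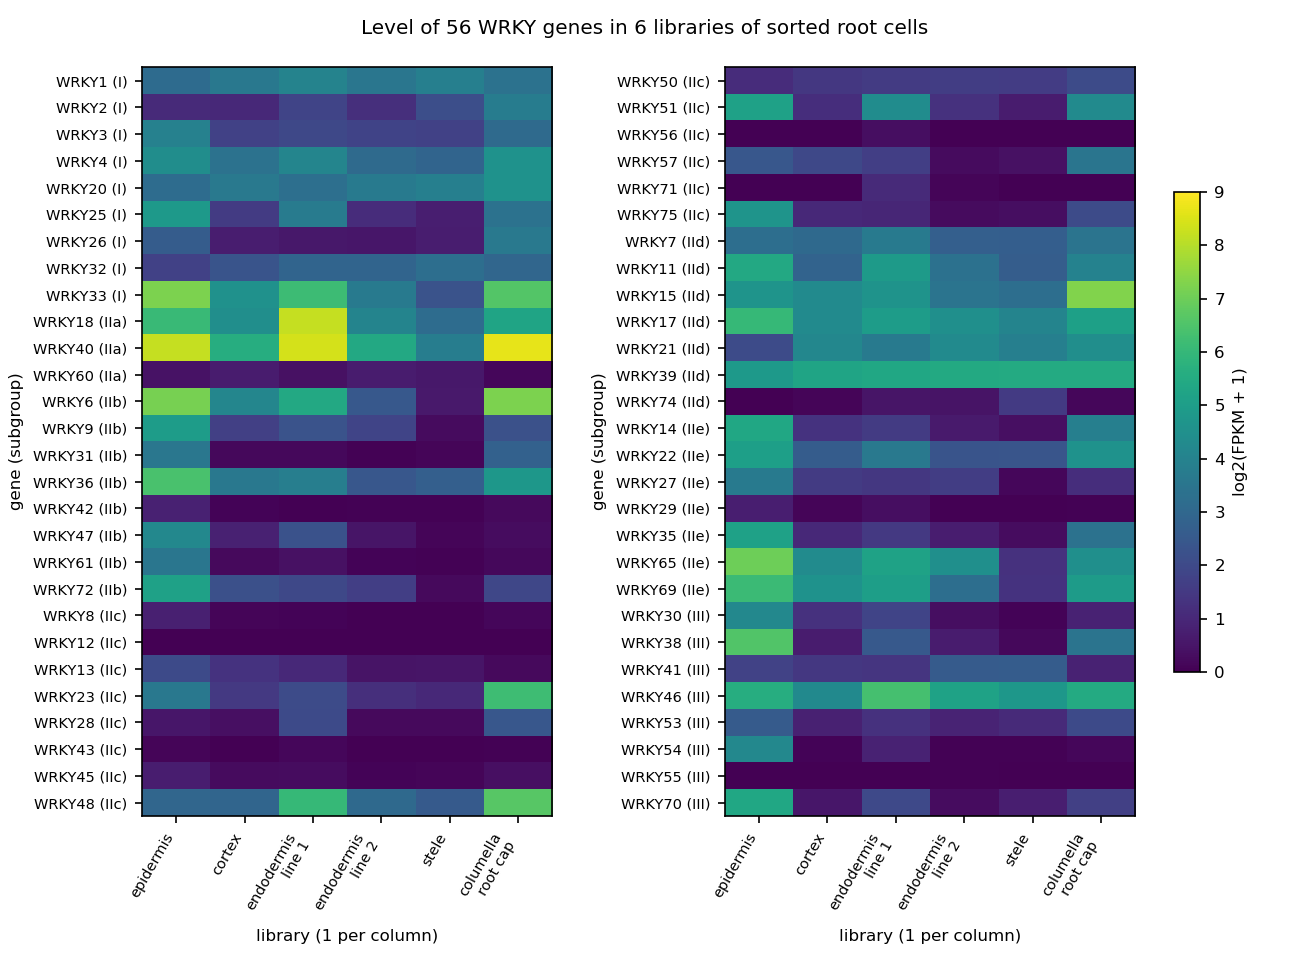
Level of each of the 56 WRKY genes in the 6 libraries, as log2(FPKM + 1), grouped by subgroup, with 1 row per gene and 1 column per library. High levels gather in the epidermis, endodermis line 1 and columella root cap columns, and 9 genes stay under 1 FPKM in every column.

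Enrichment in a cell type required log2(FPKM + 1) to lie at least 1 above the value in each library of the other cell types, a factor of 2 on that scale, and at least 5 FPKM on the higher side. Depletion is the same rule downward, with at least 5 FPKM in every library of the other cell types. For either call in endodermis, both lines had to pass. By this rule of size, which carries no p-value, 16 WRKY genes were enriched in epidermis, or 34.0% of the 47 measured, against 4.46% of all measured genes. The median difference of the 47 members between epidermis and the mean of the other 4 cell types was 1.85 log2, against -0.39 over all measured genes. The plot of differences by cell type shows each member beside both medians.

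**Figure D2:**
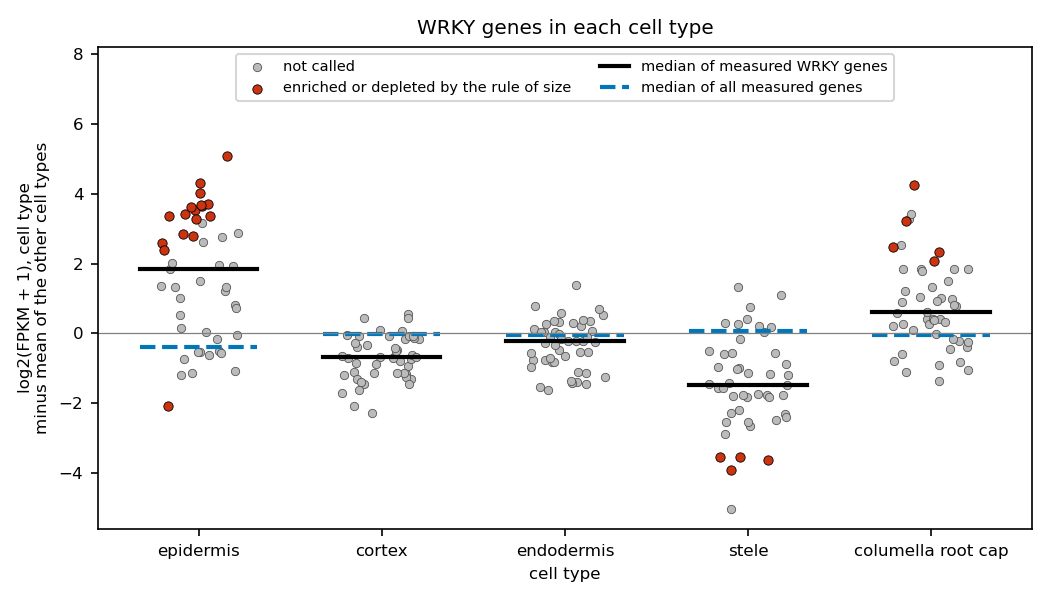
Difference of each measured WRKY gene between a cell type and the mean of the other 4, in log2(FPKM + 1), with 1 point per gene, red where the rule of size was passed. The black median of WRKY genes is 1.85 in epidermis and -1.47 in stele, and the dashed median of all measured genes stays between -0.39 and 0.06.

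Subgroup III, which includes regulators of salicylate responses, gave 4 of its 8 members to the epidermis. WRKY70 (AT3G56400), which promotes salicylate-dependent and represses jasmonate-dependent defence, was at 40.0 FPKM in epidermis, against 0.466 in cortex, 2.97 and 0.231 in endodermis lines 1 and 2, 0.693 in stele and 2.28 in columella root cap. WRKY54 (AT2G40750), its close relative with a shared part in leaf senescence, was at 17.3 FPKM in epidermis, against 0.0592 in cortex, 0.810 and 0.0451 in endodermis lines 1 and 2, 0.0270 in stele and 0.104 in columella root cap. WRKY38 (AT5G22570), a negative regulator of basal defence, was at 93.1 FPKM in epidermis, against 0.613 in cortex, 4.77 and 0.601 in endodermis lines 1 and 2, 0.143 in stele and 10.1 in columella root cap. All 3 stood far above every other library in epidermis, and their next highest values lay in endodermis line 1 or columella root cap. WRKY30 (AT5G24110) followed the same order of the first 2 libraries as WRKY70 and WRKY54, at 17.2 FPKM in epidermis, against 1.43 in cortex, 2.58 and 0.258 in endodermis lines 1 and 2, 0.0655 in stele and 0.814 in columella root cap. The margin over the nearest library was 3.37 log2 for WRKY70, 3.34 for WRKY54, 3.08 for WRKY38 and 2.35 for WRKY30. The other listed members of the subgroup did not pass. WRKY46, in brassinosteroid and drought responses, was highest in endodermis line 1, and WRKY53, a senescence regulator, reached 4.95 FPKM at most. WRKY41 reached 5.18 FPKM in stele at most, and WRKY55 was under 1 FPKM throughout.

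Subgroup IIb gave 5 of its 8 members. WRKY61 (AT1G18860) was at 10.5 FPKM in epidermis, against 0.160 in cortex, 0.323 and 0.0565 in endodermis lines 1 and 2, 0.0272 in stele and 0.137 in columella root cap. WRKY72 (AT5G15130), known in basal defence and the nearest relative of WRKY61 by coding sequence, was at 34.7 FPKM in epidermis, against 3.58 in cortex, 2.84 and 2.19 in endodermis lines 1 and 2, 0.174 in stele and 2.76 in columella root cap. WRKY9 (AT1G68150) was at 30.7 FPKM in epidermis, against 2.27 in cortex, 3.91 and 2.60 in endodermis lines 1 and 2, 0.203 in stele and 3.71 in columella root cap. All 3 stood apart in epidermis, with every other library below 4 FPKM. WRKY47 (AT4G01720) was at 17.4 FPKM in epidermis, against 0.766 in cortex, 3.87 and 0.421 in endodermis lines 1 and 2, 0.0885 in stele and 0.217 in columella root cap. WRKY36 (AT1G69810) was at 83.7 FPKM in epidermis, against 11.2 in cortex, 13.3 and 4.43 in endodermis lines 1 and 2, 5.64 in stele and 26.4 in columella root cap. WRKY36 was present in every layer, while WRKY47 stayed below 1 FPKM in the libraries other than epidermis and endodermis line 1. WRKY31 and WRKY6 of this subgroup were high in epidermis and in columella root cap alike, WRKY31 at 10.9 and 5.88 FPKM and WRKY6 at 141 and 150.4 FPKM, and so neither was enriched in a single layer.

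Subgroup IIe also gave 5, of 7 members. WRKY65 (AT1G29280) was at 129 FPKM in epidermis, against 19.5 in cortex, 35.2 and 21.2 in endodermis lines 1 and 2, 1.42 in stele and 21.4 in columella root cap. WRKY69 (AT3G58710), its nearest relative by coding sequence, was at 69.3 FPKM in epidermis, against 23.1 in cortex, 31.9 and 8.52 in endodermis lines 1 and 2, 1.52 in stele and 30.0 in columella root cap. Both were high in epidermis and lowest in stele, and both were also depleted in stele by the rule. WRKY14 (AT1G30650) was at 40.2 FPKM in epidermis, against 1.47 in cortex, 1.99 and 0.576 in endodermis lines 1 and 2, 0.294 in stele and 13.8 in columella root cap. WRKY35 (AT2G34830) was at 34.6 FPKM in epidermis, against 1.07 in cortex, 1.85 and 0.633 in endodermis lines 1 and 2, 0.227 in stele and 9.54 in columella root cap. These 2 ran nearly in parallel, with columella root cap second in both, and their levels differed by at most 0.49 log2 in any library. WRKY27 (AT5G52830), which affects symptoms of bacterial wilt, was at 12.0 FPKM in epidermis, against 1.99 in cortex, 1.77 and 2.13 in endodermis lines 1 and 2, 0.127 in stele and 1.25 in columella root cap. It was above 2 FPKM in no library other than epidermis and endodermis line 2.

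The last 2 epidermis-enriched members came from other subgroups. WRKY75 (AT5G13080, subgroup IIc), which modulates phosphate acquisition and root hair development, was at 24.1 FPKM in epidermis, against 1.05 in cortex, 0.933 and 0.209 in endodermis lines 1 and 2, 0.255 in stele and 3.19 in columella root cap. WRKY25 (AT2G30250, subgroup I), known in heat tolerance, was at 27.5 FPKM in epidermis, against 1.94 in cortex, 12.3 and 1.19 in endodermis lines 1 and 2, 0.700 in stele and 9.51 in columella root cap. WRKY75 was clearly highest in epidermis, whereas WRKY25 only just passed, with a margin of 1.10 log2 over endodermis line 1. WRKY69 also lay close to the limit, at 1.10, and WRKY17 (0.93), WRKY3 (0.85) and WRKY31 (0.79) lay just under it. Of the 16 members, 13 had their lowest value in stele. The median epidermis difference was 3.36 log2 in subgroup III, 3.35 in IIb and 2.94 in IIe, against 1.66 in IIa, 0.81 in I, 0.74 in IIc and -0.05 in IId. The bar plot of calls by subgroup gives the counts, in which IIa and IId have no epidermis-enriched gene.

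**Figure D3:**
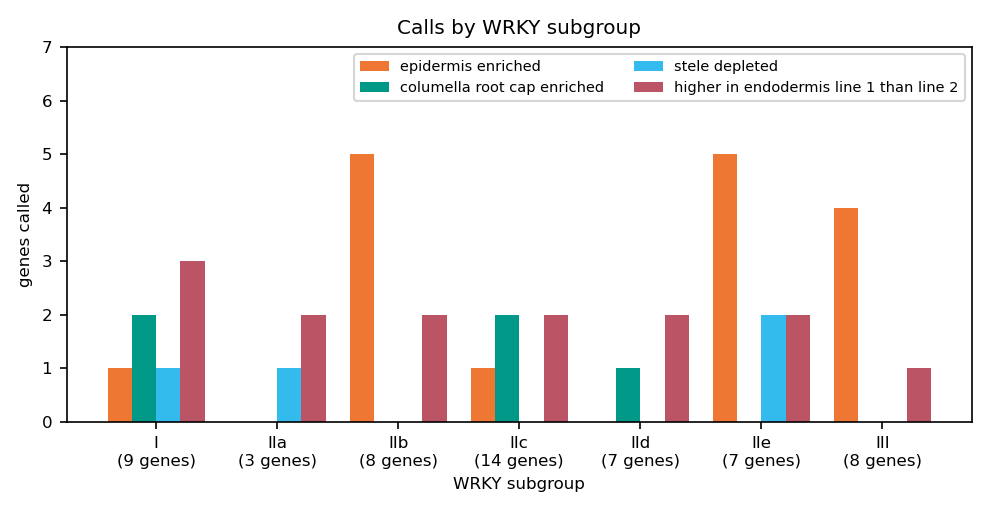
Number of WRKY genes called, by subgroup, as bars for enrichment in epidermis, enrichment in columella root cap, depletion in stele and a higher level in endodermis line 1 than in line 2. Subgroups IIb, IIe and III hold 5, 5 and 4 of the 16 epidermis-enriched genes, while genes higher in line 1 occur in all 7 subgroups.

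The epidermis library also held root cap transcripts. The 5 root cap markers summed to 125 FPKM in epidermis, against 310.5 in columella root cap and at most 7.91 in the remaining libraries, with none at 0. The part of root cap cells in the epidermis result was not tested. Of the 16 epidermis-enriched WRKY genes, 5 had columella root cap as the second-highest library. The same share over all epidermis-enriched genes was not computed, so whether this count is unusual is not known. WRKY21 (AT2G30590, subgroup IId) went the other way and was the single member depleted in epidermis, against 0.966% of all measured genes. It was at 3.13 FPKM in epidermis, against 16.8 in cortex, 11.8 and 18.8 in endodermis lines 1 and 2, 13.8 in stele and 20.7 in columella root cap. All values outside epidermis were at least 11 FPKM.

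As a secondary test, limma set each cell type against the average of the rest over all measured genes. Spread was taken from the endodermis pair with an infinite prior. Thus limma based its p-values on a spread shared across genes, whatever the line difference of a single gene. It called 17 members higher in epidermis at a Benjamini-Hochberg adjusted p under 0.05, against 6.19% of measured genes, and none lower, against 0.473%, with 24 members at an unadjusted p under 0.05 in either direction. The 17 include WRKY6, WRKY31 and WRKY33, and leave out WRKY25 and WRKY69. The difference for WRKY38 was 5.07 log2 (SE 1.01, limma adjusted p = 2.90e-05) and that for WRKY14 was 3.69 log2 (SE 0.974, limma adjusted p = 0.00368). With library size factors the same test called 9 members, without the mean-variance trend 7, and without the filter on low values none, with 14 at an unadjusted p under 0.05 in that last fit.

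In columella root cap 5 members were enriched, or 10.6% of the 47 measured, against 5.44% of all measured genes. WRKY23 (AT2G47260, subgroup IIc), an auxin-inducible regulator of root development, reached 72.3 FPKM in columella root cap, against 11.2 in epidermis, 1.81 in cortex, 3.14 and 1.34 in endodermis lines 1 and 2 and 1.06 in stele. WRKY15 (AT2G23320, subgroup IId), known in leaf growth, reached 154 FPKM in columella root cap, against 24.5 in epidermis, 19.0 in cortex, 23.6 and 10.2 in endodermis lines 1 and 2 and 8.50 in stele. WRKY2 (AT5G56270, subgroup I), which acts in the first division of the zygote, reached 12.7 FPKM in columella root cap, against 1.09 in epidermis, 1.05 in cortex, 2.58 and 1.34 in endodermis lines 1 and 2 and 3.44 in stele. For all 3 the root cap value lay above all 5 other libraries, and epidermis was second for WRKY23 and WRKY15 but near the bottom for WRKY2. WRKY57 (AT1G69310, subgroup IIc), known in drought tolerance, reached 10.3 FPKM in columella root cap, against 4.42 in epidermis, 2.83 in cortex, 2.15 and 0.198 in endodermis lines 1 and 2 and 0.325 in stele. WRKY26 (AT5G07100, subgroup I), known with WRKY25 and WRKY33 in heat tolerance, reached 11.5 FPKM in columella root cap, against 5.16 in epidermis, 0.645 in cortex, 0.478 and 0.453 in endodermis lines 1 and 2 and 0.658 in stele. These last 2 had margins of only 1.06 and 1.02 log2 over epidermis and no longer passed after scaling by size factors or by quantiles, which left 3 members. In limma 6 members were higher in columella root cap, against 4.71% of measured genes: WRKY6, WRKY15, WRKY23, WRKY26, WRKY28 and WRKY48. It called none lower there, against 0.336%, and 13 members had an unadjusted p under 0.05 in either direction. WRKY28, with 4.38 FPKM in columella root cap, 3.01 in endodermis line 1 and at most 0.459 elsewhere, lay under the 5 FPKM of the rule of size. None of the 6 was called with size factors, without the trend or without the filter on low values.

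The columella root cap library also held the xylem markers, which summed to 509 FPKM there, against 10.4 in epidermis, 41.4 in cortex, 89.6 and 10.6 in endodermis lines 1 and 2 and 173 in stele, with no marker at 0. Their part in the columella root cap result was not tested. WRKY12 (AT2G44745), which represses secondary wall formation in the pith, was listed at 0 in all 6 libraries. WRKY13, known in stem lignification, read 0.181 FPKM in columella root cap, against 3.08 in epidermis and 0.428 in stele.

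No member was enriched in stele, against 1.55% of all measured genes, or in cortex, against 0.824%. None was depleted in cortex, against 0.0458%, or in columella root cap, against 1.11%. In stele 4 members were depleted, or 8.51% of the 47, against 2.20% of all measured genes, and the median difference of the members was -1.47 log2, against 0.06 over all measured genes. Beside WRKY65 and WRKY69, these were a pair of well-known stress regulators. WRKY33 (AT2G38470, subgroup I), which drives camalexin synthesis and resistance to necrotrophic fungi, was at 3.89 FPKM in stele, against 147 in epidermis, 22.5 in cortex, 70.2 and 12.0 in endodermis lines 1 and 2 and 96.3 in columella root cap. WRKY40 (AT1G80840, subgroup IIa), which with WRKY18 and WRKY60 modulates defence and abscisic acid responses, was at 13.1 FPKM in stele, against 297 in epidermis, 47.7 in cortex, 342 and 42.3 in endodermis lines 1 and 2 and 408 in columella root cap. Stele lay below all 5 other libraries for both, and the nearest was endodermis line 2 in each case. WRKY6, at 0.522 FPKM in stele and 4.55 in endodermis line 2, missed the rule only through its 5 FPKM minimum. The same held for WRKY9 and WRKY72, which lay 1.45 and 1.44 log2 below every other library in stele. In limma, 5 members were lower in stele, against 2.01% of measured genes: WRKY6, WRKY33, WRKY40, WRKY65 and WRKY69. The difference for WRKY40 was -3.54 log2. Between the endodermis lines, WRKY40 differed by 2.99 log2, WRKY6 by 2.96, WRKY33 by 2.46, WRKY69 by 1.79 and WRKY65 by 0.70. The shared spread does not take in these line differences gene by gene. None of the 5 was called with size factors, without the trend or without the filter on low values. WRKY74 (subgroup IId), at 1.88 FPKM in stele and at most 0.416 elsewhere, was the single member limma called higher in stele, against 0.961% of measured genes, and it lay under the 5 FPKM of the rule of size. It too was not called with size factors, without the trend or without the filter on low values. Without endodermis line 2 the rule counted 7 stele-depleted members. Of 14 genes known to respond quickly to wounding and handling, 5 were also depleted in stele, against 2.20% of all measured genes. Enrichment in columella root cap was found for 3 of the 14, against 5.44%. The part of these genes in the WRKY results was not tested.

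In endodermis no member was enriched in both lines, against 0.681% of all measured genes, and limma called none higher, against 1.91%, and none lower, against 0.249%, with 7 members at an unadjusted p under 0.05 and a smallest adjusted p of 0.0502. In cortex limma called none higher, against 0.508%, and none lower, against 0.00508%, with 5 members at an unadjusted p under 0.05 and a smallest adjusted p of 0.783. The endodermis lines themselves stood apart. A gene was called apart between the lines at a difference of at least 1 in log2(FPKM + 1), with 5 FPKM on the higher side. By this measure 14 of 56 members were higher in line 1, or 29.8% of the 47 measured, against 13.9% of all measured genes. None was lower, against 16.1%. WRKY41, at 1.61 FPKM in line 1 and 4.99 in line 2, differed by -1.20 log2. It missed the measure only through the 5 FPKM minimum. Of the 47 members 40 had the larger value in line 1, against 8529 of 19671 genes. The median difference, line 1 minus line 2, was 0.82 log2 for the members and -0.18 for all measured genes. There is 1 library per line, so these differences have no test.

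Subgroup IIa had the largest median difference between the lines, 3.55 log2 over its 2 measured members. WRKY18 (AT4G31800) was at 292 FPKM in endodermis line 1, against 15.8 in line 2, with 67.6 in epidermis, 20.6 in cortex, 8.04 in stele and 36.9 in columella root cap. WRKY40 was at 342 FPKM in line 1, against 42.3 in line 2. WRKY18 was higher in line 1 than in any other library, while WRKY40 in line 1 stood between epidermis and columella root cap. The difference was 4.12 log2 for WRKY18 and 2.99 for WRKY40. WRKY60, the third member of this subgroup, stayed under 1 FPKM in every library. Without line 2, WRKY18 passed as enriched in endodermis.

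Members of other subgroups known in stress responses followed. WRKY51 (AT5G64810, subgroup IIc), which takes part in salicylate-mediated repression of jasmonate signalling, was at 19.7 FPKM in endodermis line 1, against 1.43 in line 2, with 34.1 in epidermis, 1.26 in cortex, 0.624 in stele and 18.9 in columella root cap. WRKY48 (AT5G49520, subgroup IIc), a repressor of basal defence, was at 63.9 FPKM in endodermis line 1, against 7.46 in line 2, with 6.80 in epidermis, 6.56 in cortex, 4.83 in stele and 99.5 in columella root cap. WRKY6 (AT1G62300, subgroup IIb), known in senescence and as a repressor of the phosphate exporter gene PHO1, was at 42.3 FPKM in endodermis line 1, against 4.55 in line 2, with 141 in epidermis, 16.5 in cortex, 0.522 in stele and 150.4 in columella root cap. Line 2 was close to cortex and stele for WRKY51 and WRKY48, and line 1 lay far above line 2 for all 3. The differences were 3.09 log2 for WRKY51, 2.94 for WRKY48 and 2.96 for WRKY6. WRKY50, the other listed gene with a lysine codon in its core, was at 1.94 FPKM in line 1 and 2.10 FPKM in line 2. It did not differ by the measure. In subgroup I, WRKY25 and WRKY33 differed by 2.61 and 2.46 log2, with the values given above. WRKY4 (AT1G13960), known with WRKY3 in resistance to necrotrophs, was at 16.2 FPKM in endodermis line 1, against 7.59 in line 2, with 20.5 in epidermis, 9.52 in cortex, 6.38 in stele and 22.9 in columella root cap. It only just passed, with a difference of 1.01 log2.

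The other 6 members differed by 1.14 to 1.79 log2. WRKY46 (AT2G46400, subgroup III) was at 79.5 FPKM in endodermis line 1, against 35.1 in line 2, with 48.1 in epidermis, 18.5 in cortex, 26.4 in stele and 44.2 in columella root cap. WRKY11 (AT4G31550, subgroup IId), a negative regulator of basal resistance, was at 28.7 FPKM in endodermis line 1, against 9.21 in line 2, with 42.2 in epidermis, 6.28 in cortex, 5.22 in stele and 14.9 in columella root cap. WRKY22 (AT4G01250, subgroup IIe), which acts downstream of the flagellin receptor cascade, was at 11.3 FPKM in endodermis line 1, against 4.01 in line 2, with 32.9 in epidermis, 5.19 in cortex, 4.20 in stele and 23.3 in columella root cap. All 3 were higher in line 1 than in cortex, line 2 and stele, and WRKY46 was higher in line 1 than in any other library. The difference between the lines was 1.16 log2 for WRKY46, 1.54 for WRKY11, 1.30 for WRKY22, 1.79 for WRKY69, 1.40 for WRKY36 and 1.14 for WRKY15. Of the 14 members, all had line 1 above cortex, by at least 1 log2 in 9, and all had it at least 1 log2 above stele. Line 1 exceeded epidermis in 4 of the 14 and columella root cap in 6.

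**Figure D4:**
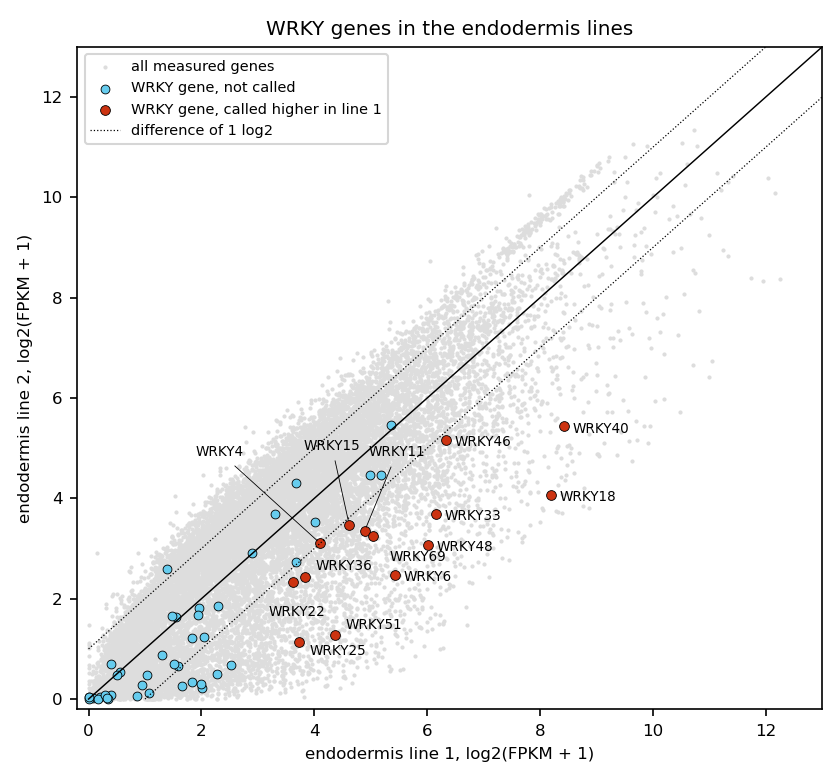
Level in endodermis line 1 against line 2 as log2(FPKM + 1), with 1 point per measured gene, WRKY genes in colour, the line of equality and dotted lines at a difference of 1. The 14 red WRKY genes lie below the lower dotted line. The only WRKY gene above the upper one, WRKY41, is under 5 FPKM in both lines.

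The same lines differed in other gene groups. Of the 14 wound and handling genes, all were higher in line 1, with a median difference of 1.87 log2. The measure was passed by 10 of them, against 13.9% of all measured genes. The 14 genes summed to 2009.9 FPKM in line 1 and 468 in line 2. Their sum was 1769 in epidermis, 489.5 in cortex, 223 in stele and 2018 in columella root cap. The same 3 libraries were at the top as for the WRKY sum. JAZ10, a jasmonate response repressor, was at 375 FPKM in line 1, against 31.2 in line 2. The part of wounding or handling in the WRKY result was not tested. Of 8 endodermis markers 7 passed the measure as higher in line 1, against the same 13.9% of all measured genes. CASP1, a scaffold protein of the Casparian strip, was at 2045 FPKM in line 1, against 85.2 in line 2. SCR, the reporter gene, was lower in line 1 by 1.29 log2. All 5 xylem markers were higher in line 1 and 4 passed the measure, again against 13.9% of all measured genes. Epidermis markers, summed to 19.3 FPKM in line 1 and 12.6 in line 2, and root cap markers, summed to 6.80 and 2.66 FPKM, stayed low in both lines, and none was at 0. The part of these markers was not tested either.

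**Figure D5:**
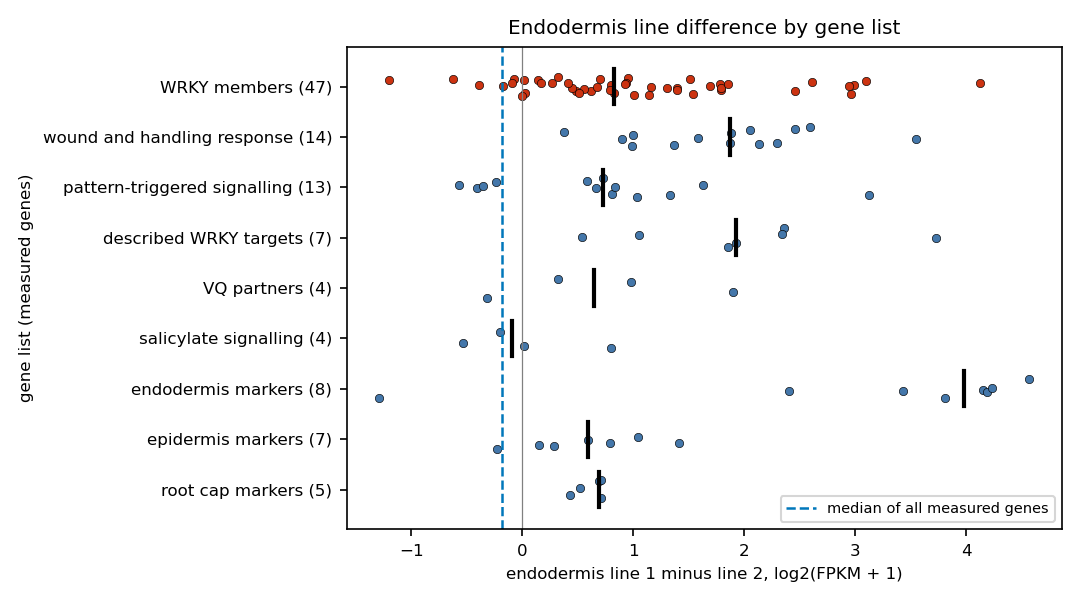
Difference between endodermis line 1 and line 2 in log2(FPKM + 1) for the WRKY genes and the other gene lists, with 1 point per measured gene a bar at the median of each list and a dashed line at the median of all measured genes. The WRKY median is 0.82, that of the wound and handling genes 1.87, and that of all measured genes -0.18.

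Among components upstream of the family, MPK3 and MPK6, the kinases that act on several WRKY proteins, differed in pattern. MPK3 read 356 FPKM in columella root cap, against 74.2 in epidermis, 29.8 in cortex, 42.3 and 25.2 in endodermis lines 1 and 2 and 11.5 in stele. MPK6 was at 42.3 FPKM in epidermis, 92.9 in cortex, 62.5 and 74.0 in endodermis lines 1 and 2, 59.6 in stele and 73.5 in columella root cap. MPK3 was enriched in columella root cap and depleted in stele, whereas MPK6 was present at 42 FPKM or more in every library. Of the 14 pattern-signalling genes 13 were measured, and BIK1, a receptor-associated kinase, was also enriched in columella root cap, at 32.5 FPKM, against at most 5.94 elsewhere. Between the lines, 4 of these 14 genes passed the measure as higher in line 1, against 13.9% of all measured genes. RBOHD, the oxidase of the immune burst, was at 19.3 FPKM in line 1, against 1.33 in line 2. Of 5 VQ-motif partners, which bind WRKY proteins, 4 were measured. Only MKS1 passed the measure as higher in line 1, in a list too short to compare with that share. Of 5 salicylate genes 4 were measured and none passed the measure between the lines. ICS1, the salicylate synthesis enzyme, was enriched in cortex, at 8.00 FPKM, against at most 1.99 elsewhere.

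Of 10 genes described as WRKY targets 7 were measured. PHT1;1, a phosphate transporter controlled by WRKY75 and WRKY45 among others, was at 19.5 FPKM in epidermis, against 0.468 in cortex, 0.642 and 0.132 in endodermis lines 1 and 2, 0.262 in stele and 0.153 in columella root cap. Like WRKY75 it was enriched in epidermis, and so was NHL10, at 24.9 FPKM, against at most 4.42 elsewhere. PAD3, the last enzyme of camalexin synthesis and a target of WRKY33, reached only 1.19 FPKM in endodermis line 1 and at most 0.171 elsewhere, while WRKY33 was at 147 FPKM in epidermis. Between the lines 4 of the 10 passed the measure as higher in line 1, against 13.9% of all measured genes. Among them were ACS2 and ACS6, ethylene synthesis enzymes, and PHO1. ACS2 was at 32.6 FPKM in line 1, against 1.54 in line 2, and PHO1 was at 11.8 FPKM in line 1, against 1.52 in line 2.

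A small number of members were even or absent. WRKY39 (AT3G04670, subgroup IId) was at 27.2 FPKM in epidermis, 36.9 in cortex, 40.3 and 43.0 in endodermis lines 1 and 2, 44.5 in stele and 44.8 in columella root cap. WRKY1 (AT2G04880, subgroup I) was at 7.85 FPKM in epidermis, 11.2 in cortex, 15.2 and 10.6 in endodermis lines 1 and 2, 13.8 in stele and 9.55 in columella root cap. These were the 2 members with 5 FPKM or more somewhere whose highest and lowest libraries differed by less than 1 log2, or 4.26% of the 47, against 10.5% of all measured genes. WRKY50 was also within 1 log2, between 1.21 and 3.14 FPKM, and did not reach that level. Others were present in every library and passed no rule: WRKY7 lay between 5.38 and 11.8 FPKM, WRKY17 between 15.5 and 64.9, WRKY20 between 7.98 and 23.1, WRKY32 between 2.35 and 8.43 and WRKY3 between 2.30 and 14.5. WRKY71, which promotes shoot branching, reached 1 FPKM in endodermis line 1 only, at 1.11. The 9 members under 1 FPKM everywhere were WRKY8, WRKY12, WRKY29, WRKY42, WRKY43, WRKY45, WRKY55, WRKY56 and WRKY60, with 0.758 FPKM as the highest value. They include WRKY29, the usual partner of WRKY22, and WRKY42 and WRKY45, which are known in phosphate uptake with WRKY75.

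Relatives by coding sequence were compared as 19 pairs in which each gene was the nearest of the other among the listed members. Of these pairs 18 lay inside a subgroup. The remaining pair joined WRKY13 of subgroup IIc and WRKY26 of subgroup I, at 53.0% identity. The lowest identity was 52.3%, for WRKY46 and WRKY38. The identity of unrelated coding sequences in such alignments was not computed, so pairs near these values may not be close relatives. The same highest library was found in 8 pairs, 3 of them with a member that was not measured. The pair of WRKY12 and WRKY56 was counted as unlike, although WRKY12 was at 0 in every library and had no highest one. The share of random pairs of members with the same highest library was not computed. WRKY11 and WRKY17 were the closest, with 76.2% identical positions, and both were highest in epidermis. WRKY39 and WRKY74 had 74.3% identical positions but differed by up to 5.38 log2 in a library. WRKY18 and WRKY60 had 64.5% identical positions and differed by up to 7.79 log2, as WRKY60 was not measured. WRKY14 and WRKY35, with 68.6% identical positions, stayed within 0.49 log2 of each other in all libraries.

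W boxes, searched as TTGACC or TTGACT on either strand in the 300 bases before the annotated gene start, occurred in 23 of 56 members, or 41.1%, against 32.3% of 26683 protein-coding genes. At least 2 occurred in 9 members, or 16.1%, against 7.93%. Of the 14 members higher in endodermis line 1, 6 (42.9%) held a W box, against 34.7% of all genes higher in that line, and of the other 42 members 17 (40.5%) did. Of the 16 epidermis-enriched members 6 (37.5%) held one, against 42.2% of all epidermis-enriched genes with a promoter. The promoters below show members with 3 and 2 W boxes, and WRKY18, the member farthest apart between the lines, with none. They are written 5′ to 3′ on the strand of the gene in TAIR10.1 (RefSeq), with W boxes in capitals, GGTCAA and AGTCAA being the same boxes read on the other strand.
WRKY33, chr2:16107935-16108234, plus strand: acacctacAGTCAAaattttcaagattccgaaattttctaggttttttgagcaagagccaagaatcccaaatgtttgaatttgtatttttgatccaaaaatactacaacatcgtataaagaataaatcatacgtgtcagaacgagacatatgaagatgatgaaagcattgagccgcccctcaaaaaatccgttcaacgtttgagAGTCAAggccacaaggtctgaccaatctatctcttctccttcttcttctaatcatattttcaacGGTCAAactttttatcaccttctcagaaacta
WRKY30, chr5:8154711-8155010, minus strand: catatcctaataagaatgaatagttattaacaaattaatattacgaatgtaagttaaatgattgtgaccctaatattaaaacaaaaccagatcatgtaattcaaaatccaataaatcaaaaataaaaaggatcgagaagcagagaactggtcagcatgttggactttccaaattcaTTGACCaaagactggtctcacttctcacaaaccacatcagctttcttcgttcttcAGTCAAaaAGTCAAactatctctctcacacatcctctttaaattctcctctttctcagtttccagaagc
WRKY15, chr2:9924586-9924885, plus strand: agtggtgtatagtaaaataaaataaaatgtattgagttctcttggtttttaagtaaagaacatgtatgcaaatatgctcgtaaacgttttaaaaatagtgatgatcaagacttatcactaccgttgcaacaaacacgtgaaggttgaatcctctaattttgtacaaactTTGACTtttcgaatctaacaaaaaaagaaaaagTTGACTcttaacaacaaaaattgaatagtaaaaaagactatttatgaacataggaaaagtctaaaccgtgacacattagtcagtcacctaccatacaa
WRKY18, chr4:15382477-15382776, plus strand: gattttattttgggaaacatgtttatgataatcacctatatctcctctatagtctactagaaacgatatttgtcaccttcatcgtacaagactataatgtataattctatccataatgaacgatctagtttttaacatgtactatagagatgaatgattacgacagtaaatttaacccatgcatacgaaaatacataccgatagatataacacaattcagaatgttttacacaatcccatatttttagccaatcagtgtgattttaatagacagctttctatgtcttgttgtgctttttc
A match to these letters is a description of the sequence and not a binding site. WRKY33, depleted in stele and higher in line 1, and WRKY30, enriched in epidermis, held 3 matches each, the most found in a member.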

How the data were processed

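FPKM were deposited by the authors, with 1 file per library. The submitters' processing notes name Cufflinks 2.0.2, TopHat 1.3.1, Bowtie 0.12.7 and, as genome build, TAIR10. Which annotation they used, whether strand was kept and how reads with several matches were treated is not given in the sources used here. Overlapping or near-identical genes thus have uncertain values. Groups follow the labelled cell type. The labels do not say whether the endodermis lines were separate cultures, so their spread may be technical. Read depth is not given, and no counting interval could be set. From loci under 0.5 FPKM, 1 read was worth 0.979 times (stele) to 1.59 times (cortex) its value in endodermis line 1, where a larger factor means a shallower library. An exact 0 can be a failed estimate.

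The 56 members were matched by locus identifier. The members, their subgroups and the gene lists were chosen with earlier results of these data known. All members could be named, with values in every library for those past a rule. From the gene lists, at most 5 enriched or depleted genes per list, the reporter genes, MPK3, MPK6, PAD3 and PHT1;1 could be named, and further list genes were chosen after their values were seen. Values were compared as log2(FPKM + 1), which understates differences of low genes. Filters and rules stand beside the results. The secondary test was limma 3.58.1 in R 4.3.3 (eBayes with trend, 1 residual degree of freedom, Benjamini-Hochberg adjustment over 19671 genes, calls at adjusted p under 0.05 and 1 log2 or more). The spread of the single libraries is thereby taken to equal that of the endodermis pair. Computations were tested on simulated data with changes set in epidermis, only in genes whose mean log2(FPKM + 1) matched 5 FPKM or more. The rule of size found 24% of 2-fold and 98% of 16-fold changes and called 2.14% of unchanged genes. In limma 0% of 2-fold and 4-fold changes were found, 10% of 8-fold and 34% of 16-fold changes. A lack of limma calls therefore says little on changes of these sizes. Recovery of changes in genes with a lower mean, as in several members, was not simulated. Sequences and coordinates came from the RefSeq assembly TAIR10.1, to which all 56 members were matched, with Biopython 1.88. The deposited files carry no coordinates. Nearest relatives were sought among the 56 members only, by global alignment of coding sequences, with identity over all alignment columns. Alternative settings were tried for the FPKM minimum, the log2 margin and the pseudocount, with size factors, TPM, quantile normalization, each endodermis line left out, and the limma settings.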

Additional observations from a re-analysis of the deposited data

How the results depend on the processing

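Of 142 recomputed counts and medians, 108 stayed close to those reported, 33 moved and 1 changed sign. No named gene changed direction, with 26 of 292 values for named genes no longer past the rule. With an FPKM minimum of 1, 1 member (WRKY74) was enriched and 7 were depleted in stele, and 1 (WRKY41) was lower in endodermis line 1, as it was with TPM (1 member). With a log2 margin of 2, 9 members were enriched and 0 depleted in epidermis, 1 was depleted in stele and 2 were enriched in columella root cap, and 7 were higher in line 1, since the rule is stricter. Size factors and quantile normalization each left 3 members enriched in columella root cap. The median difference in epidermis was 2.09 log2 with a pseudocount of 0.1, 1.27 without the filter on low values and 2.21 with size factors, which moved the median of all genes by 0.29. In stele it was -1.87 with the smaller pseudocount and -1.14 with no filter, and in columella root cap 0.97 and 0.40, with 0.81 for TPM and 0.45 for quantiles. With each endodermis line left out, 0 to 1 members (WRKY18, without line 2) were enriched in endodermis and 4 to 7 depleted in stele, and medians ran from 1.59 to 1.87 in epidermis, from -0.78 to 0.016 in endodermis and from 0.61 to 0.80 in columella root cap. The endodermis median turned positive only without line 2, where line 1 alone stands for endodermis. With size factors limma called 9 members in epidermis, 0 in stele and 0 in columella root cap, without the trend 7, 0 and 0, and with no filter 0, 0 and 0. At an unadjusted p under 0.05 these were 28, 19 and 9, then 24, 16 and 10, then 14, 5 and 4. Prior degrees of freedom were 5.93, 9.15 and 1.22 in these fits and infinite in the one reported, and the cause of the other changes was not tested. No paired analysis was possible because only endodermis has numbered lines. With 1 endodermis line left out limma has no residual degree of freedom and was not run. FPKM without read numbers do not show how far depth limits the low members.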
